A study of Mus musculus with 26 samples.

Results

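The genes of voltage-gated calcium, sodium and potassium channels, and of their close relatives, were examined in mouse liver tumours and control livers by bulk RNA sequencing. Members were the genes of the deposited count table whose symbols begin with Cacna, Cacnb or Cacng, with Kcn and a further letter, or with Scn followed by a number and the letter a or b. Kcnq1ot1, an antisense RNA, was left out, and at least 50 counts over all 26 libraries were required. Of 35976 genes in the table, 137 matched by symbol and 106 of these had enough counts, against 21126 genes in all with at least 50. The choice used symbols and totals only. These totals include the libraries compared below, so the set of members is not independent of the comparisons. Just inside the limit were Kcne2 with 50 and Kcnd2 with 53 counts, and just outside were Scn1a with 48 and Kcng4 with 39. The 106 comprise 10 calcium channel pores and 9 calcium channel auxiliary subunits, 6 sodium channel pores and 4 sodium channel auxiliary subunits. The potassium side holds 24 voltage-gated pores, 17 silent (modifier) or auxiliary subunits, 12 members of the calcium-activated family, 11 inward rectifiers and 10 pores of the 2-pore family. The other members are 2 antisense RNAs (Kcnmb4os1 and Kcnmb4os2) and Kcnrg, a regulator that is not itself a channel.

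The libraries fell into 4 groups. Cyp1a2_CA tumours (10 libraries from 9 animal numbers) came from mice with a tamoxifen-activated Cre recombinase under the promoter of Cyp1a2, a gene of hepatocytes near the central vein, together with Ctnnb1(ex3)fl/+ and Arid2fl/fl. Gls2_CA tumours (9 libraries from 5 animal numbers) carried the same floxed alleles, with Cre under the promoter of Gls2, a gene of hepatocytes near the portal vein. Cyp1a2_C (1 library) had the Cyp1a2 driver and the Ctnnb1 allele with no Arid2 allele in its label. Loss of exon 3 leaves a beta-catenin that escapes degradation, and Arid2 encodes a chromatin remodelling subunit. These mice were a mix of C57BL/6J and Swiss Webster, received tamoxifen on postnatal day 28 and were followed for 6 to 12 months. WT livers (6 libraries) came from C57BL/6J mice given Cre by adeno-associated virus and kept on normal chow for up to 12 months. Cre was directed to hepatocytes, so other cells in a tumour keep unrecombined alleles. Tumour growth, genotype, strain, virus and tamoxifen all changed together between tumours and WT and cannot be told apart. Libraries with 1 animal number in their titles were summed, n counts animal numbers, and p-values measure the spread between them.

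Voltage-gated channels open a selective pore when the membrane depolarizes. In nerve and muscle, sodium channels carry the upstroke of the action potential, calcium channels couple it to contraction or release, and potassium channels end it. Each pore protein works with auxiliary subunits that set its traffic and gating. Calcium-activated, inward rectifier and 2-pore potassium channels share the pore fold but respond to calcium, to the direction of current or to pH, stretch and lipids. Hepatocytes are not electrically excitable. They use potassium channels for membrane potential, volume control and bile formation, and they raise cytosolic calcium mainly by release from stores.

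Total counts were between 36992043 and 49254470 in the 20 tumour libraries and between 13486530 and 16975288 in WT, with no overlap. The 13 mitochondrial messenger RNA genes took 1.43 to 6.73% of counts in tumours and 8.90 to 11.1% in WT. Levels are CPM, counts per 1000000 of the TMM-scaled library total. Arid2, the floxed gene, was at 23.3 to 46.2 CPM in tumour libraries, including 41.7 CPM in Cyp1a2_C, and at 61.1 to 73.2 CPM in WT. Its log2 fold change against WT was -1.18 (SE 0.105, adjusted p = 6.16e-08, edgeR) in Cyp1a2_CA and -0.97 (SE 0.166, adjusted p = 0.000227, edgeR) in Gls2_CA. In 4 tumour libraries Ttn, which encodes titin of muscle, exceeded 1000 CPM. The Ttn-high libraries were GAB235-S of Gls2_CA (replicate 3), CAB225-L and CAB44-L of Cyp1a2_CA (replicates 8 and 6) and CB6-L of Cyp1a2_C, at 8520 to 29574 CPM, against at most 93.7 CPM in the other 16 tumour libraries. The 8 hepatocyte markers summed to 684 to 14564 CPM in Ttn-high tumours, 15830 to 91759 in other tumours and 82072 to 106345 in WT.

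Most channel genes were nearly silent in WT liver and more were detected in tumours. All members together made up 2200 to 3771 CPM in the 4 Ttn-high libraries (median 2423), 400.0 to 3987 CPM in the other 16 tumours (median 594) and 176 to 226 CPM in the 6 WT livers (median 196). The tumour ranges lie above the WT range without overlap. The number of members at 1 CPM or more was 49 to 67 in Ttn-high tumours, 29 to 42 in other tumours and 20 to 27 in WT. Of the 106 members, 16 had 0 counts in WT. Membership required 50 counts over all libraries, and 23 members had under 50 outside the Ttn-high ones. The order of these counts was therefore set in part by that limit and by the larger tumour totals. The same counts over all genes were not made. In bulk tissue, fewer cells of a type and less RNA per cell cannot be told apart. The heat map of members shows a bright block in the Ttn-high columns, single bright cells in single tumours, and a short list of genes that are brightest in WT.

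**Figure D1:**
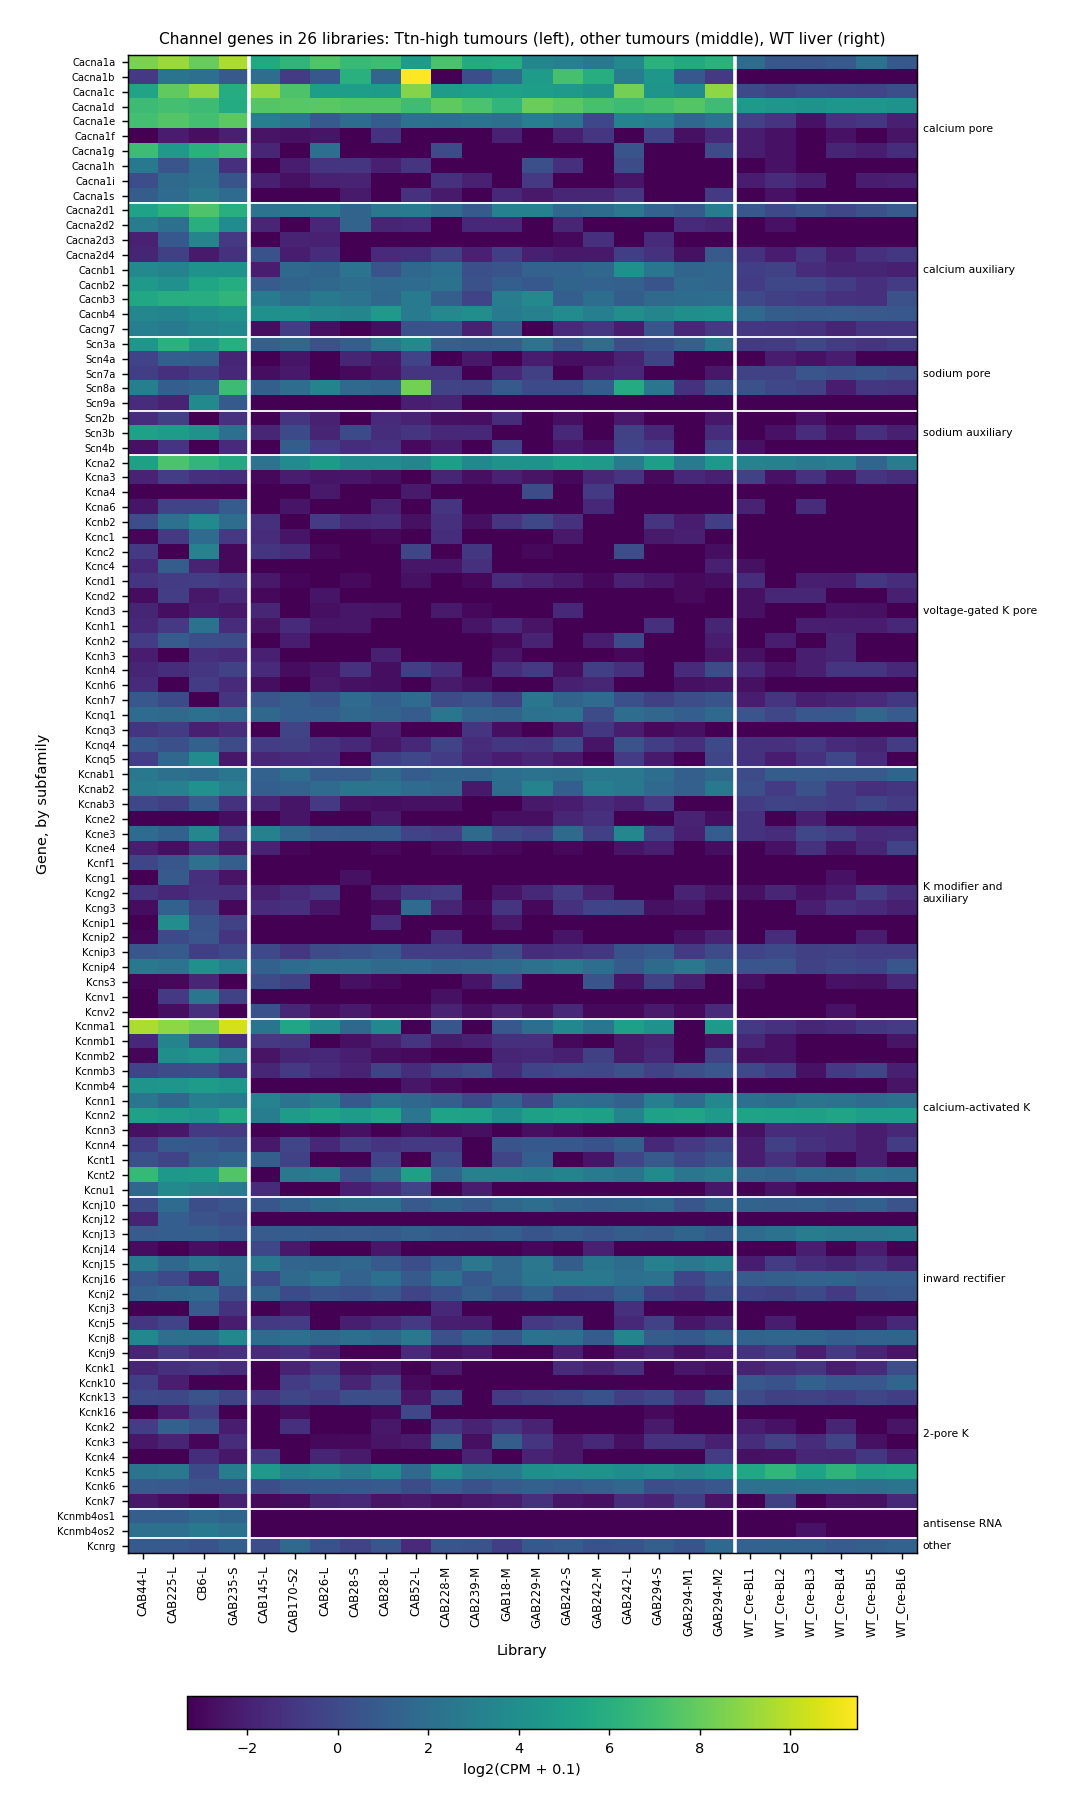
Level of the channel genes reported (rows, by subfamily) in each of the 26 libraries (columns), as log2(CPM + 0.1). The 4 Ttn-high tumours are on the left, the other 16 tumours in the middle and the 6 WT livers on the right. In these sets 49 to 67, 29 to 42 and 20 to 27 of all 106 members reach 1 CPM. Of the 106, 23 have under 50 counts outside the Ttn-high tumours.

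Tumours of each driver were then compared with WT by edgeR's quasi-likelihood test over all genes, with Benjamini-Hochberg adjustment and a threshold of 0.05. In Cyp1a2_CA against WT, 50 members had enough counts to be tested, and 27 of them rose (54%) while 6 fell (12%). Over all 16841 genes tested, 38.3% rose and 32.7% fell. In Gls2_CA against WT, 40 members were tested, of which 25 rose (62.5%) and 6 fell (15%), beside 39.2 and 34% of 14976 genes. The median log2 fold change of the tested members was 1.75 in Cyp1a2_CA and 1.84 in Gls2_CA, beside 0.17 and 0.14 over all genes tested. The filter on low counts keeps genes that are high in 1 group, so 56 and 66 members were not tested and these shares do not describe the whole family. Members near 0 in WT, such as Cacna1e, Kcnma1 and Kcnj15, entered mainly through their tumour counts. Their rises were therefore set in part by the filter. With no filter all 106 entered, and 41 rose and 6 fell in Cyp1a2_CA, beside 24.8 and 20.6% of all genes. The same fit gave 38 rises and 6 falls in Gls2_CA, beside 26.2 and 19% of all genes. Both comparisons used the same 6 WT livers.

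Without the Ttn-high libraries, 23 of 47 members tested rose and 7 fell in Cyp1a2_CA, beside 37.8 and 35.5% of all genes, with a median of 0.75. In Gls2_CA, 25 of 40 rose and 6 fell, beside 40.4 and 38.1%, with a median of 1.42. Channel genes are long: members tested had a median exon length of 5786.5 bases, against 4199 bases over all genes tested in Cyp1a2_CA against WT. With an offset for length and GC content, 22 rose and 7 fell in Cyp1a2_CA, beside 34.4 and 32.3% of all genes, with a median of 0.93. The same offset gave 24 rises and 7 falls in Gls2_CA, beside 35.5 and 34%, with a median of 1.41. With both changes at once, 21 rose and 8 fell in Cyp1a2_CA (35.9 and 34.2% of all genes, members' median 0.62), and 20 rose and 7 fell in Gls2_CA (37.2 and 38.9%, median 0.94). Tumour counts thinned to the WT depth gave 25 rises and 5 falls in Cyp1a2_CA (38.9 and 35.7%) and 25 and 6 in Gls2_CA (38.5 and 34.9%). Upper-quartile factors gave 23 and 7 in Cyp1a2_CA (33.2 and 37.2%) and 25 and 6 in Gls2_CA (34.2 and 39%).

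Cell type markers also differed between tumours and WT, and their part in the channel results was not tested. In the same fits 38.3% of all genes tested rose and 32.7% fell in Cyp1a2_CA, and 39.2 and 34% in Gls2_CA. Of 8 hepatocyte markers 7 fell in each tumour group. Of 6 endothelial markers 1 rose and 4 fell in each, and of 7 stellate cell and fibroblast markers 4 fell in Cyp1a2_CA and 6 in Gls2_CA. Macrophage markers gave 1 fall of 6 in Cyp1a2_CA and 2 rises and 2 falls of 6 in Gls2_CA. T cell markers gave no call of 4 in Cyp1a2_CA and 1 rise of 3 in Gls2_CA. Cholangiocyte markers gave 1 rise of 5 in Cyp1a2_CA, and 1 rise and 1 fall of 4 in Gls2_CA. Smooth muscle and pericyte markers gave 2 rises and 1 fall of 7 in Cyp1a2_CA, and 2 rises and 2 falls of 6 in Gls2_CA. Neuron markers rose in 2 of 3 tested in Cyp1a2_CA and 2 of 2 in Gls2_CA, and Schwann cell markers in 3 of 3 and 2 of 2. The 1 cardiac marker tested rose in Cyp1a2_CA and none was tested in Gls2_CA, skeletal muscle gave 1 fall of 2 and 1 fall of 1, and no neuroendocrine marker had enough counts.

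**Figure D2:**
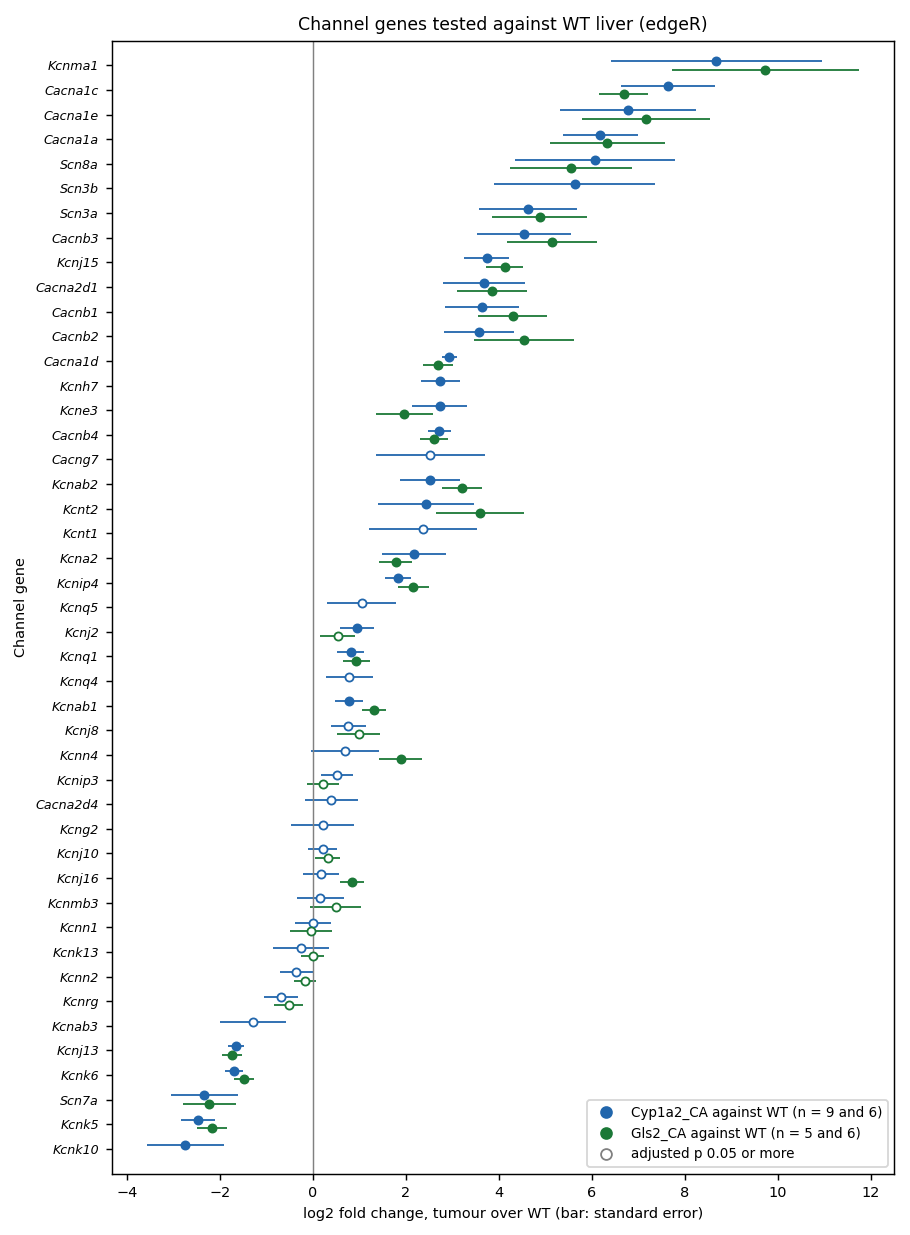
Log2 fold change over WT with its standard error for the channel genes tested and reported in Cyp1a2_CA (n = 9) and Gls2_CA (n = 5) against WT (n = 6). Filled points passed an adjusted p of 0.05; Cacna1b, with 0 counts in WT, and Kcnk10 in Gls2_CA, with 0 counts in tumours, are left out because their fitted fold is no bound, and Kcnma1 lies farthest to the right, at 8.68 in Cyp1a2_CA and 9.74 in Gls2_CA.

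Of the 10 calcium channel pores, 5 had enough counts to be tested. All 5 rose in each tumour group, beside 38.3 and 39.2% of all genes tested. They are Cacna1a (P/Q type), Cacna1b (N type), Cacna1c and Cacna1d (L type) and Cacna1e (R type). Cacna1b, with 0 counts in WT, entered the test only through its tumour counts, so it could not have fallen. Cacna1e, at 0.0656 to 0.629 CPM in WT, also entered mainly through its tumour counts, so "all 5" was fixed in part in advance. The P/Q, N and R types are best known from nerve terminals. Cacna1d (chromosome 14, 30039939 to 30491455, mm10) was the calcium pore with the highest level per kilobase of exon in WT, at 1.66 CPM per kilobase. It had 114 to 224 CPM over the 9 Cyp1a2_CA animals (median 178), 56.3 to 275 CPM over the 5 Gls2_CA animals and 18.5 to 24.6 CPM in WT. No tumour animal overlapped WT. The log2 fold changes were 2.94 (SE 0.172, adjusted p = 6.56e-10, edgeR) in Cyp1a2_CA and 2.70 (SE 0.324, adjusted p = 1.36e-05, edgeR) in Gls2_CA. With the length and GC offset they were 1.75 and 1.5, still past the threshold. A stretch of 589 of its 12621 exon bases overlaps Chdh on the other strand, and the strand setting of the counting is not given in the sources used here.

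Cacna1c (chromosome 6, 118587240 to 119196418), the pore of the L-type channel of heart and smooth muscle, was near 1 CPM in every WT liver. Its level was 29.4 to 533 CPM over Cyp1a2_CA animals (median 39.8), 36.3, 31.2, 59.8, 125 and 198 CPM in the Gls2_CA animals, and 0.648 to 1.06 CPM in WT. All 14 tumour animals stood far above WT. Single tumour libraries without high Ttn fell into a low and a high range described further on. The log2 fold change was 7.64 (SE 1.01, adjusted p = 5.44e-06, edgeR) in Cyp1a2_CA and 6.69 (SE 0.534, adjusted p = 5.22e-07, edgeR) in Gls2_CA, and 5.86 and 4.94 with the offset.

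Cacna1a (chromosome 8, 84388440 to 84640246) had 28.1 to 617 CPM in Cyp1a2_CA (median 111), 58.8, 11, 839, 9.32 and 64.4 CPM in Gls2_CA and 1.38 to 4.73 CPM in WT. The 839 CPM belonged to GAB235, a Ttn-high animal, and every other tumour animal was still above WT. Its log2 fold change was 6.19 (SE 0.81, adjusted p = 5.13e-06, edgeR) in Cyp1a2_CA and 6.34 (SE 1.24, adjusted p = 0.000619, edgeR) in Gls2_CA. Without Ttn-high libraries the values were 5.20 and 3.80, and with the offset 4.41 and 4.13, all past the threshold.

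Cacna1e (chromosome 1, 154390731 to 154884501) was far higher in the Ttn-high animals than in the others. It had 1.77 to 185 CPM in Cyp1a2_CA (median 5.19), 4.46, 8.15, 223, 5.29 and 5.45 CPM in Gls2_CA, and 0.0656 to 0.629 CPM in WT. Without the Ttn-high libraries its log2 fold change was 3.69 in Cyp1a2_CA, against 6.79 with them, and 4.01 in Gls2_CA, against 7.17. With the offset it was 3.95 and 4.33, and all of these values passed the threshold.

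Cacna1b (chromosome 2, 24603887 to 24763152) had 0 counts in all 6 WT livers and up to 2872 CPM in 1 tumour animal, CAB52. The other Cyp1a2_CA animals had 0 to 32.4 CPM, and the Gls2_CA animals had 3.69, 29.1, 1.71, 71.8 and 7.94 CPM. With WT set to a limit of 3 counts over its libraries (0.0319 CPM), the mean was at least 10172-fold higher in Cyp1a2_CA and at least 717-fold higher in Gls2_CA, with adjusted p of 0.0169 and 0.00127 (edgeR). Without CAB52 the 8 remaining Cyp1a2_CA animals averaged 5.62 ± 11 CPM (SD), at least 176-fold above that limit, and the adjusted p was 0.00596. Without GAB242 the 4 remaining Gls2_CA animals averaged 10.6 ± 12.6 CPM (SD), at least 333-fold above it (adjusted p = 0.00124). Such limits cover counting error only.

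Among the auxiliary subunits of calcium channels, those called moved the same way. Over all genes tested 38.3 and 39.2% rose. Of the 9 members, 5 rose among 7 tested in Cyp1a2_CA and 5 of 5 in Gls2_CA, and none fell. In both groups these were Cacna2d1, an extracellular subunit that carries the channel to the surface, and Cacnb1, Cacnb2, Cacnb3 and Cacnb4, the cytoplasmic beta subunits. Cacnb4 was the steadiest, at 6.94 to 18.5 CPM in Cyp1a2_CA (median 13.1), 7.19, 8.65, 19.5, 12.9 and 14.8 CPM in Gls2_CA and 1.49 to 3.14 CPM in WT. All tumour animals were above all WT livers, and the log2 fold changes were 2.72 (SE 0.243, adjusted p = 6.53e-08, edgeR) and 2.61 (SE 0.30, adjusted p = 9.73e-06, edgeR), or 2.08 and 1.90 with the offset. Cacnb3 had a larger but less even rise, with 0.742 to 60.5 CPM in Cyp1a2_CA (median 6.29), 7.69, 12.4, 85.5, 2.68 and 3.72 CPM in Gls2_CA, and 0.307 to 1.13 CPM in WT. The lowest Cyp1a2_CA animal lay inside the WT range. Its log2 fold changes were 4.55 (SE 1.01, adjusted p = 0.000875, edgeR) and 5.14 (SE 0.97, adjusted p = 0.000487, edgeR), and 2.71 and 3.31 without the Ttn-high libraries (3.74 and 4.32 with the offset). Cacna2d4 (0.40, adjusted p = 0.538) and Cacng7 (2.53, adjusted p = 0.0638) were tested in Cyp1a2_CA and did not pass with edgeR, and without the Ttn-high libraries Cacng7 was at 0.40.

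Sodium channels were split. Of 4 pores tested in Cyp1a2_CA, 3 rose, among them Scn3a and Scn8a, and Scn7a fell. In Gls2_CA, Scn3a and Scn8a rose and Scn7a fell among 3 tested. The shares of all genes tested were 38.3 and 39.2% for rises and 32.7 and 34% for falls. Scn8a and Scn3a are channels of neurons, and Scn7a is an atypical member that senses extracellular sodium. Scn3a had 1.18 to 72.5 CPM in Cyp1a2_CA (median 2.98), 2.19, 4.87, 65.9, 2.26 and 3.27 CPM in Gls2_CA and 0.368 to 0.788 CPM in WT, with no overlap. Its log2 fold changes were 4.63 (SE 1.05, adjusted p = 0.0010, edgeR) and 4.88 (SE 1.03, adjusted p = 0.00107, edgeR), and 2.82 and 2.49 without the Ttn-high libraries (3.28 and 3.52 with the offset). Scn8a rested on a few tumours. It had 0.636 to 343 CPM in Cyp1a2_CA (median 3.02), 1.68, 0.903, 117, 19.2 and 2.30 CPM in Gls2_CA and 0.129 to 1.14 CPM in WT. Its log2 fold change of 6.07 in Cyp1a2_CA (adjusted p = 0.00536, edgeR) was 2.66 without CAB52 (adjusted p = 0.0028), and its 5.56 in Gls2_CA (adjusted p = 0.00222) was 3.27 without GAB235 (adjusted p = 0.00566). In Gls2_CA its call was lost when the offset and the removal of Ttn-high libraries were combined (1.87, adjusted p = 0.0685). Scn7a was at 0 to 0.578 CPM in Cyp1a2_CA (median 0.104), 0.214, 0.602, 0.220, 0.129 and 0.0362 CPM in Gls2_CA and 0.629 to 1.38 CPM in WT. The groups did not overlap, and it fell by 2.33 on the log2 scale (SE 0.714, adjusted p = 0.00851, edgeR) in Cyp1a2_CA and by 2.22 (SE 0.572, adjusted p = 0.0040, edgeR) in Gls2_CA. Its log2 fold change was -2.93 in Cyp1a2_CA without the Ttn-high libraries and -2.90 in Gls2_CA without GAB229.

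Among sodium channel beta subunits, Scn3b rose in Cyp1a2_CA. It was at 0.188 to 35.2 CPM in Cyp1a2_CA (median 0.368) and 0 to 0.307 CPM in WT, and its log2 fold change of 5.64 (adjusted p = 0.00872, edgeR) did not pass with DESeq2 (1.30, adjusted p = 0.0633). Without the Ttn-high libraries Scn3b had too few counts to be tested.

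Voltage-gated potassium pores make up the largest subfamily, with 24 members, and few were expressed. Of 7 tested in Cyp1a2_CA, 4 rose, among them Kcna2, Kcnh7 and Kcnq1, and 1 fell. Of 4 tested in Gls2_CA, 3 rose, among them Kcna2 and Kcnq1, and 1 fell. Rises made up 38.3 and 39.2% of all genes tested, and falls 32.7 and 34%. Kcna2, a delayed rectifier of axons, had 4.76 to 162 CPM in Cyp1a2_CA (median 14.4), 18.6 to 51.2 CPM over the 5 Gls2_CA animals and 2.76 to 9.66 CPM in WT. Gls2_CA did not overlap WT, and Cyp1a2_CA did at its low end. The log2 fold change of Kcna2 was 2.18 (SE 0.687, adjusted p = 0.0102, edgeR) in Cyp1a2_CA and 1.79 (SE 0.36, adjusted p = 0.000775, edgeR) in Gls2_CA. Without the Ttn-high libraries, of which CAB225 held the 162 CPM, the values were 1.08 (adjusted p = 0.0218) and 1.36 (adjusted p = 0.000317). Correcting for exon length and GC content ended both calls (Cyp1a2_CA at 0.80 with adjusted p = 0.21, Gls2_CA at 0.55 with adjusted p = 0.12), and likewise those of Kcnq1 (0.44, adjusted p = 0.188, and 0.53, adjusted p = 0.142).

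While 38.3 and 39.2% of all genes tested rose, 4 of 7 silent and auxiliary potassium subunits tested in Cyp1a2_CA rose. In Gls2_CA 4 of 5 rose, and of the 17 in this subfamily none was called lower. In both groups the 4 that rose were Kcnab1 and Kcnab2, cytoplasmic beta subunits, Kcne3 and Kcnip4. Kcne3 is a single-span partner of Kcnq1 in epithelia, and Kcnip4 a calcium-binding partner of Kcnd pores. Kcnip4 was at 2.31 to 6.22 CPM in Cyp1a2_CA (median 3.57), 3.34, 4.72, 8.59, 4.01 and 3.87 CPM in Gls2_CA and 0.656 to 1.37 CPM in WT. The tumour animals did not overlap WT, and its log2 fold change was 1.83 (SE 0.279, adjusted p = 2.48e-05, edgeR) in Cyp1a2_CA and 2.16 (SE 0.337, adjusted p = 0.000111, edgeR) in Gls2_CA. Kcne3 had 0.564 to 8.94 CPM in Cyp1a2_CA (median 2.39), 0.962, 0.702, 0.781, 5.23 and 0.932 CPM in Gls2_CA and 0.246 to 0.788 CPM in WT. In each tumour group the lowest animals lay inside the WT range. The log2 fold changes of Kcne3 were 2.73 (SE 0.595, adjusted p = 0.000722, edgeR) and 1.97 (SE 0.61, adjusted p = 0.0117, edgeR), and the Gls2_CA value was 0.95 without GAB242 (adjusted p = 0.0341). Kcnab1 in Cyp1a2_CA (0.78, adjusted p = 0.028) did not pass without the Ttn-high libraries (0.47, adjusted p = 0.0938) or with the offset (0.02, adjusted p = 0.956), and in Gls2_CA (1.31, adjusted p = 0.000662) it did not pass with both changes (0.54, adjusted p = 0.0631).

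Among the calcium-activated family, 2 of 7 tested members rose in Cyp1a2_CA and 3 of 6 in Gls2_CA, and none fell. With 38.3 and 39.2% of all genes tested rising, the Cyp1a2_CA share is not above that of all genes. Kcnma1 (chromosome 14, 23289431 to 24014491), the pore of the large-conductance channel that opens on both calcium and voltage, rose in both, as did Kcnt2, a sodium-activated relative. Kcnn4, the intermediate-conductance channel of blood and epithelial cells, rose in Gls2_CA (1.89, adjusted p = 0.00266) and was at 0.69 in Cyp1a2_CA (adjusted p = 0.412), or 0.09 without the Ttn-high libraries. Kcnma1 had 0 to 821 CPM in Cyp1a2_CA (median 7.94), 1.58, 4.01, 1517, 16.6 and 16.4 CPM in Gls2_CA and 0.197 to 0.495 CPM in WT. CAB52 and CAB239 had 0 counts, and the other 12 tumour animals were above WT. Its log2 fold change was 8.68 (SE 2.27, adjusted p = 0.00301, edgeR) in Cyp1a2_CA and 9.74 (SE 2.01, adjusted p = 0.000932, edgeR) in Gls2_CA. Without the Ttn-high libraries it was 4.73 (adjusted p = 0.00676) and 4.65 (adjusted p = 5.04e-05), and with the offset 6.59 and 7.63. Kcnt2 in Cyp1a2_CA (2.44, adjusted p = 0.0444) did not pass without those libraries (1.19, adjusted p = 0.219), with no filter (adjusted p = 0.0738) or with the offset (adjusted p = 0.0826), and in Gls2_CA it was at 3.60, or 1.11 without GAB235, past the threshold both times. Kcnn2, the small-conductance channel with the highest level per kilobase of this family in WT, was at 5.58 to 39.3 CPM in Cyp1a2_CA (median 35.5), 16.9, 34.8, 48.6, 27.4 and 33.2 CPM in Gls2_CA and 29.9 to 39.7 CPM in WT. The ranges overlapped, and neither difference passed with edgeR (-0.35, adjusted p = 0.379, and -0.17, adjusted p = 0.522). With the length and GC offset both passed downward (-1.19, adjusted p = 0.0079, and -1.11, adjusted p = 0.000203).

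Inward rectifiers were mixed: of 6 tested in each comparison, 2 rose and 1 fell. The share of rises is near that of all genes tested, 38.3 and 39.2%, and that of falls is below their 32.7 and 34%. Kcnj15, a channel of secretory epithelia, was at 1.10 to 6.99 CPM in Cyp1a2_CA (median 2.72), 2.88 to 7.54 CPM in Gls2_CA and 0.114 to 0.519 CPM in WT. It rose in both groups without overlap, by 3.74 on the log2 scale (SE 0.489, adjusted p = 4.85e-06, edgeR) and 4.13 (SE 0.399, adjusted p = 2.28e-06, edgeR). Kcnj2, a strong rectifier that holds the resting potential of muscle, rose in Cyp1a2_CA (0.95, adjusted p = 0.0324) and was at 0.54 in Gls2_CA (adjusted p = 0.217), and its call was lost without the Ttn-high libraries (0.72, adjusted p = 0.093) and with the offset (0.79, adjusted p = 0.0712). Kcnj16, a subunit of pH-sensitive channels, rose in Gls2_CA (0.85, adjusted p = 0.0107) and was at 0.18 in Cyp1a2_CA (adjusted p = 0.683). With all 3 groups in 1 fit, Kcnj16 did not pass in Gls2_CA (adjusted p = 0.0814). Kcnj8, the pore of ATP-sensitive channels of vessels, and Kcnj10 did not pass in either with edgeR. Kcnj8 was at 0.77 (adjusted p = 0.0763) and 0.99 (adjusted p = 0.0739), and with the offset at 0.99 (adjusted p = 0.0235) and 1.33 (adjusted p = 0.0296). Without the Ttn-high libraries Kcnj8 was at 0.37 in both (adjusted p = 0.24 in Cyp1a2_CA and 0.328 in Gls2_CA). Kcnj13, an epithelial channel, was the inward rectifier with the highest level per kilobase in WT and the 1 that fell. It was at 1.67 to 2.21 CPM in Cyp1a2_CA (median 1.85), 2.06, 1.38, 1.66, 1.78 and 2.01 CPM in Gls2_CA and 3.49 to 7.28 CPM in WT. Tumour and WT values did not overlap, and it fell by 1.65 on the log2 scale (SE 0.167, adjusted p = 2.77e-07, edgeR) and by 1.74 (SE 0.22, adjusted p = 2.09e-05, edgeR). The offset gave -0.95 and -0.85, both still past the threshold. However, 623 of its 1270 exon bases overlap Gigyf2 on the other strand, so reads of these genes may not be separable.

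The 2-pore family showed falls and no rise: Kcnk5, Kcnk6 and Kcnk10 fell among 4 tested in each comparison, and Kcnk13 did not pass. Falls made up 32.7 and 34% of all genes tested. Kcnk5 (chromosome 14, 20140057 to 20181809), a pH-sensitive background channel of kidney and other epithelia, had the highest level per kilobase of exon among all 2-pore genes in WT, at 16.3 CPM per kilobase. It was at 3.23 to 23.9 CPM in Cyp1a2_CA (median 10.1), 6.97, 17, 7.71, 17.3 and 16.7 CPM in Gls2_CA and 38.7 to 84.2 CPM in WT. Every tumour animal was below every WT liver. It fell by 2.47 on the log2 scale (SE 0.373, adjusted p = 2.32e-05, edgeR) in Cyp1a2_CA and by 2.16 (SE 0.324, adjusted p = 8.22e-05, edgeR) in Gls2_CA. Kcnk6, a weakly rectifying relative, was at 0.963 to 2.12 CPM in Cyp1a2_CA, 1.22 to 2.39 CPM in Gls2_CA and 4.34 to 5.05 CPM in WT, and fell by 1.70 (SE 0.185, adjusted p = 6.43e-07, edgeR) and by 1.49 (SE 0.214, adjusted p = 5.9e-05, edgeR).

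Kcnk10 (chromosome 12, 98429437 to 98578310), a channel gated by stretch and lipids, had 0 counts in all 9 Gls2_CA libraries. It was at 0 to 0.831 CPM in the Cyp1a2_CA animals (median 0.143) and at 1.23 to 2.69 CPM in WT, so the WT animals stood above every tumour. With Gls2_CA set to a limit of 3 counts over its libraries, Kcnk10 was at least 206-fold lower there than in WT (adjusted p = 1.75e-06, edgeR), and in Cyp1a2_CA it fell by 2.74 on the log2 scale (SE 0.82, adjusted p = 0.00738, edgeR). Of the 20 tumour libraries, 5 of 16 without high Ttn and 2 of the 4 Ttn-high ones (CAB44-L and CAB225-L) had any Kcnk10 count, all of them Cyp1a2_CA.

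Cyp1a2_CA tumours were then set against Gls2_CA tumours. Of 64 members tested, 0 rose and 0 fell with edgeR, beside 0% of 17129 genes in each direction. At an unadjusted p under 0.05 there was 1 member, and DESeq2 called 0 members. The log2 fold changes of the members ranged from -1.77 to 3.84. Kcnk10, with 0 counts in Gls2_CA and 124 in Cyp1a2_CA, had too few counts to be tested here, and with no filter its adjusted p was 0.79 (edgeR). With 5 Gls2_CA animals and a wide spread between tumours, a p over the threshold does not show that the drivers have alike channel expression.

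The Ttn-high tumours held the broadest set of channel transcripts. Of the 106 members, 24 (22.6%) were higher in all 4 Ttn-high libraries than in all 16 other tumours, beside 12.5% of 21126 genes, and 1 (0.943%) was lower, beside 5.86%. Of the 24, 6 had under 50 counts outside the Ttn-high libraries (Kcnf1, Kcnj12, Kcnmb4, both antisense RNAs and Kcnn3), so they were members only through their counts in those libraries. Among the 83 members with at least 50 counts outside, 18 (21.7%) were higher and 1 (1.2%) lower, beside 10.2 and 6.33% of 19537 genes. The median log2 difference of medians (with 0.1 CPM added) was 1.26 over all 106 members and 0.07 over all 21126 genes. The 1.26 includes 23 members with under 50 counts outside the Ttn-high libraries, so it was set in part by the count limit. These libraries are set apart by a measured level and come from 3 genotype groups, so the values are a description with no test. Mitochondrial messenger RNAs took 1.43 to 2.31% of the counts of these 4 libraries, against 2.11 to 6.73% in the other 16 (medians 1.88 and 3.66%), and their part in the difference was not tested. The 24 include 5 of 10 calcium pores (Cacna1a, Cacna1e, Cacna1g, Cacna1i and Cacna1s), 5 of 9 calcium auxiliary subunits (Cacna2d1, Cacna2d2, Cacnb2, Cacnb3 and Cacng7) and both antisense RNAs. The calcium-activated family gave 4 of 12 (Kcnma1, Kcnmb4, Kcnn3 and Kcnu1) and voltage-gated potassium pores 4 of 24 (among them Kcna2, Kcnb2 and Kcnd1). The other 4 were Scn3a, Scn3b, Kcnf1 and Kcnj12, and no 2-pore gene was among them. Kcnn3 separated only narrowly and near 0, at 0.0571 CPM in CAB44-L against at most 0.0562 CPM in other tumours. Its WT median was 0.238 CPM. Kcnd1 was low as well, at 0.362 to 0.533 CPM against at most 0.263 CPM in other tumours. Its highest WT value, 0.430 CPM, lay inside the Ttn-high range.

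The pore and a neuronal beta subunit of the large-conductance calcium-activated channel were both high in the Ttn-high libraries. Kcnma1 was at 812 CPM in CAB44-L, 506 in CAB225-L, 339 in CB6-L and 1472 in GAB235-S, against 0 to 42.3 CPM in the other 16 tumours (median 5.34) and a median of 0.378 CPM in WT. Kcnmb4, which slows that channel and makes it resistant to a scorpion toxin, was at 20.2, 21.1, 28.8 and 22.3 CPM in the same libraries, against 0 to 0.0843 CPM in the others, 14 of which had 0 counts. The 4 Kcnmb4 values lie close together, unlike those of Kcnma1. Kcnmb2, a beta subunit that inactivates the channel, was at 16.4, 22.4 and 9.40 CPM in 3 of the libraries and at 0.0190 CPM in CAB44-L, against at most 0.666 CPM in other tumours. Kcnmb4os1 and Kcnmb4os2, at 2.17 to 3.18 and 4.15 to 6.14 CPM, had 0 counts in all 16 others. They overlap 355 and 693 exon bases of Kcnmb4 on the other strand, so their reads may not be separable from it.

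**Figure D3:**
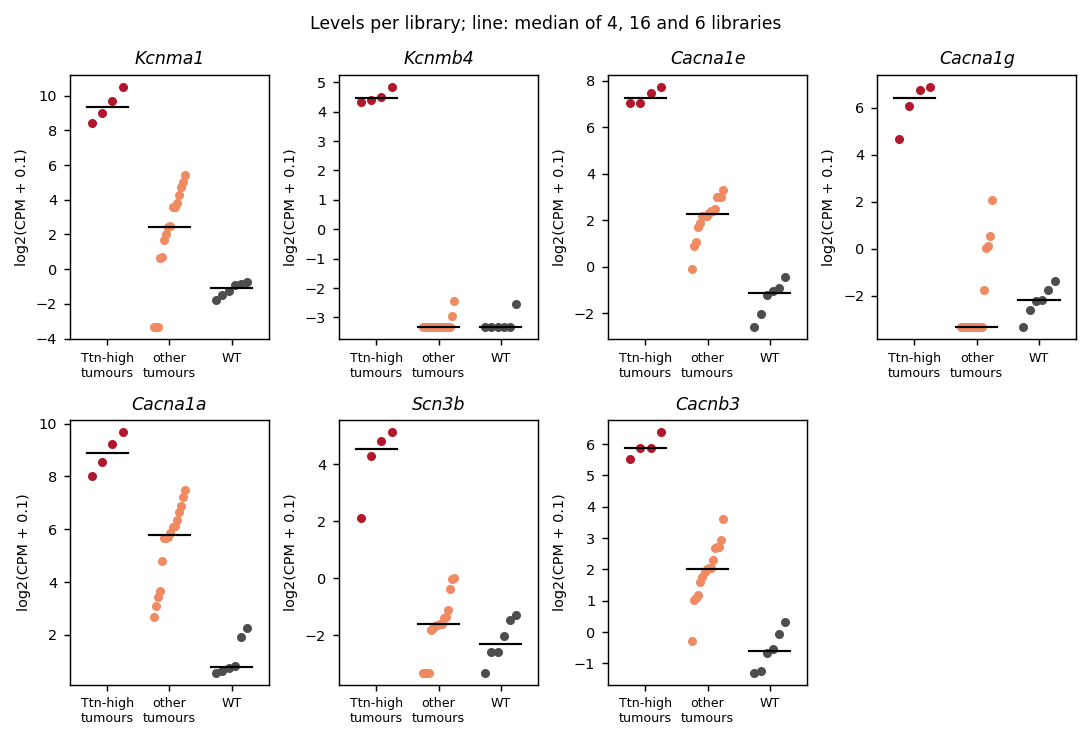
Levels of 7 channel genes as log2(CPM + 0.1) in each library of the Ttn-high tumours (4), the other tumours (16) and WT (6), with a line at the median. In each panel the 4 Ttn-high libraries are above all others, as for Kcnma1 at 339 to 1472 CPM against at most 42.3 CPM.

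The promoter windows of Kcnma1 and Kcnmb4 are shown because both genes were high in the 4 Ttn-high libraries, and that of Kcnk5 because it was the leading member of the family that fell. They are 300-base windows on GRCm38.p6 that span a start annotated by RefSeq, 5′ to 3′ on the gene's strand, with each CG dinucleotide in capitals. Kcnma1 is at chr14:24004156-24004455, minus strand. This window lies inside the GENCODE position of Kcnma1 given above, so its RefSeq start differs from the GENCODE one. Kcnmb4 is at chr10:116473474-116473773, minus strand. Kcnk5 is at chr14:20181733-20182032, minus strand.
Kcnma1: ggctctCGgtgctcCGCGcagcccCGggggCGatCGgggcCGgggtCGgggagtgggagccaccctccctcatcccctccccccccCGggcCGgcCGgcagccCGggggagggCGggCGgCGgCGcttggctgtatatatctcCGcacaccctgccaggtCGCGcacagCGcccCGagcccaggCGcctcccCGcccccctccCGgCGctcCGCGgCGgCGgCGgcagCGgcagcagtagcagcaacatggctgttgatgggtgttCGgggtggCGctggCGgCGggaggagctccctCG
Kcnmb4: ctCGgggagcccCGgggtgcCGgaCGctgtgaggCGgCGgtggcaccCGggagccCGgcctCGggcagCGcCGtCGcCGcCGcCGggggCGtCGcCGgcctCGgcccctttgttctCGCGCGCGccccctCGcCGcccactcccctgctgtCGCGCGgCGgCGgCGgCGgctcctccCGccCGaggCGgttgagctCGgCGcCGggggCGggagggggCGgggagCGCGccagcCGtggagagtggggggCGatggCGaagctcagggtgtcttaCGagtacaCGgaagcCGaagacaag
Kcnk5: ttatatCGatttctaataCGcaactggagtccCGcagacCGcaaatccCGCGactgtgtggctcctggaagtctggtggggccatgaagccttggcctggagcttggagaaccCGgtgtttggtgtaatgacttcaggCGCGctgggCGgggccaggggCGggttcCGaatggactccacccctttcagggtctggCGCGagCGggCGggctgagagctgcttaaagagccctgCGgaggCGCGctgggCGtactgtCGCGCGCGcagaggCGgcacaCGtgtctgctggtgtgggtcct
The Kcnma1 window holds 36 CG dinucleotides, the Kcnmb4 window 48 and the Kcnk5 window 26, and 6.23, 1.22 and 16.9% of all 32851 RefSeq windows of that length hold as many. Windows were matched for 77 of the 106 members (110 windows), with a median of 9 CG against 7 over all windows. The sequence CTTTGAT, a form of the site bound by the TCF partners of beta-catenin, was searched on both strands and is in 3.73% of all windows and 2.73% of the members' windows. The related CTTTGTT is in 5.85 and 5.45%, or 6 member windows. Of the windows printed here, that of Kcnmb4 holds it and those of Kcnma1 and Kcnk5 do not. GGACAGC, part of the site of the neuronal gene silencer REST, is in 6.56% of all windows and 10% of the members'. A match of letters is a description and not a bound site.

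Calcium pores separated as well. Cacna1e was at 132, 181, 131 and 216 CPM in CAB44-L, CAB225-L, CB6-L and GAB235-S, against 0.839 to 9.90 CPM in the other tumours (median 4.69). Cacna1g, a low-threshold T-type channel, was at 119, 24.9, 66.6 and 108 CPM, against 0 to 4.06 CPM, with 11 of the 16 others at 0 counts. Cacna1a was at 374, 603, 259.9 and 814 CPM, against 6.25 to 179 CPM. Cacna1d did not follow: it was at 113, 133, 114 and 54.6 CPM in the Ttn-high libraries and at 85.7 to 270.3 CPM in the others (median 181).

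Subunits of calcium and sodium channels followed the pores in part. Cacnb3 was at 46.3, 59.1, 58.7 and 82.9 CPM, against at most 12.2 CPM in other tumours, and Cacna2d2 at 7.31, 4.29, 63.9 and 14.8 CPM, against at most 2.53 CPM. Scn3b was at 34.8, 28.1, 19.5 and 4.19 CPM, against at most 0.904 CPM.

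Markers of other cell types were read in the same libraries, and their part in these differences was not tested. Of all genes with at least 50 counts, 12.5% were higher in all 4 Ttn-high libraries than in every other tumour. A count of 1 of 9 is near that share. Of 7 cardiac markers, Tnnt2 and Myl7 were higher in all 4 Ttn-high libraries. The list summed to 104 to 669 CPM there, nearly all of it Tnnt2, against 0 to 9.27 CPM in other tumours and 0.259 to 1.04 CPM in WT, an order kept for the sums that follow, and Myh6 was at 0 in the Ttn-high libraries. Of 9 skeletal muscle markers 1, Myh1, was higher in all 4, and the list summed to 2.87 to 44.4, 0.704 to 3.90 and 3.83 to 4.98 CPM. Ckm, Myh4 and Myod1 were at 0 in the other tumours. Of 9 neuron markers 1, Tubb3, was higher in all 4, with sums of 81.2 to 325, 23.4 to 89.3 and 11.7 to 16.9 CPM and Slc17a6 at 0 in the Ttn-high libraries. Of 5 Schwann cell markers, S100b and Pmp22 were higher in all 4, with sums of 118 to 133, 7.11 to 22.3 and 3.13 to 4.55 CPM. The 5 cholangiocyte, 7 stellate and 7 smooth muscle markers each had 1 gene higher in all 4 (Krt7, Dcn and Cnn1). Cholangiocyte sums were 88.6 to 306, 11 to 145 and 30.1 to 50.7 CPM, stellate sums 159 to 975, 84.8 to 570.1 and 375 to 466 CPM, and smooth muscle sums 48.0 to 255, 22.3 to 69.5 and 42.5 to 55.3 CPM. The endothelial, macrophage and T cell lists had no such gene. Their sums were 168 to 252, 141 to 264 and 291 to 326 CPM, 88.9 to 124, 45.7 to 205 and 163 to 181 CPM, and 3.90 to 31.8, 1.07 to 5.63 and 2.95 to 4.92 CPM. The 7 neuroendocrine markers summed to at most 4.43, 0.643 and 0.144 CPM, with Neurod1 at 0 in the Ttn-high libraries.

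Outside the Ttn-high libraries, single tumours carried very high levels of single channels. Cacna1b was at 2848 CPM in CAB52-L, the highest value of any member in any library, against 143 CPM in GAB242-S, 65.9 CPM in CAB28-S and a median of 3.69 CPM over the 16. In the 4 Ttn-high libraries it was at 0.457 to 5.11 CPM. CAB52-L also had the highest Scn8a, at 340.3 CPM, followed by 54.5 CPM in GAB242-L, with a median of 2.01 CPM. Its Kcnma1 was at 0 counts and its Kcnk5, at 3.20 CPM, was the lowest of the 16.

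Cacna1c fell into 2 ranges among these tumours. It was at 543 CPM in CAB145-L, 493 in GAB294-M2, 432 in CAB52-L, 329.7 in GAB242-L and 165 in CAB170-S2, and at 14.9 to 35.7 CPM in the other 11. The 5 high tumours came from both drivers, and CB6-L (511 CPM) and CAB225-L (234 CPM) of the Ttn-high libraries were in that range too. The other Ttn-high libraries, CAB44-L (39.3 CPM) and GAB235-S (58.1 CPM), lay between the 2 ranges. In WT it was at most 1.08 CPM. Cacna1d, in contrast, stayed between 85.7 and 270.3 CPM in all 16.

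Tumours with 1 animal number could differ many-fold for these genes. Within GAB242, Cacna1c was at 329.7 CPM in 1 library and 18.4 CPM in another, a ratio of 17.9, and within GAB294 the ratio was 33.2. Cacna1b differed 18.6-fold within GAB242, 47.7-fold within GAB294 and 24.3-fold within CAB28. Scn8a differed 60.3-fold within GAB242. Cacna1d differed at most 1.86-fold within these animals, Kcnk5 at most 1.93-fold and Cacna1a at most 2.03-fold. No test was made across libraries of 1 animal.

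**Figure D4:**
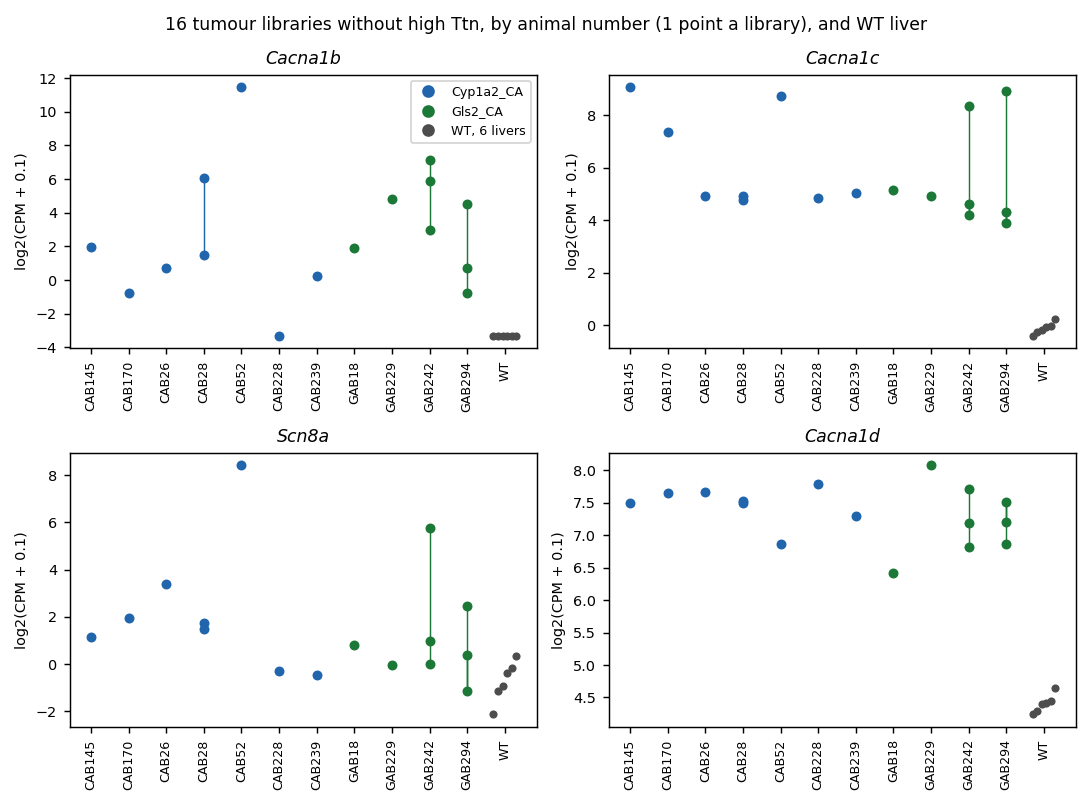
Levels of 4 calcium and sodium channel genes as log2(CPM + 0.1) in the 16 tumour libraries without high Ttn, placed by animal number with Cyp1a2_CA before Gls2_CA, and in 6 WT livers on the right. Lines join tumours of 1 animal; Cacna1b, Cacna1c and Scn8a span a wide range while Cacna1d stays between 85.7 and 270.3 CPM.

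Genes that work with these channels were counted in the same fits, in which 38.3% of all genes tested rose and 32.7% fell in Cyp1a2_CA, and 39.2 and 34% in Gls2_CA. Of 21 genes of intracellular calcium release, pumps and store-operated entry, 11 rose and 1 fell among 18 tested in Cyp1a2_CA, and 9 rose and 2 fell among 15 in Gls2_CA. Itpr1, a calcium release channel of the endoplasmic reticulum, averaged 601 CPM in Cyp1a2_CA, 468 CPM in Gls2_CA and 158 CPM in WT (log2 fold change 1.85, adjusted p = 2.52e-09, in Cyp1a2_CA). Slc8a1, the sodium-calcium exchanger, averaged 157, 184 and 10.3 CPM (4.08, adjusted p = 1.93e-06, in Gls2_CA). The store sensors split: Stim1 rose in Cyp1a2_CA (1.44, adjusted p = 5.87e-07) and Stim2 fell (-1.47, adjusted p = 1.84e-07).

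Partners that hold or modify channels moved upward. Of 21, 8 of 11 tested rose in Cyp1a2_CA and 7 of 8 in Gls2_CA, and none fell. Ank3, which anchors sodium and potassium channels at the axon's start, averaged 1393 CPM in Cyp1a2_CA, 1667 CPM in Gls2_CA and 32.0 CPM in WT (5.38, adjusted p = 7.79e-06, and 5.67, adjusted p = 3.78e-05, edgeR). Akap9, a scaffold of Kcnq1, averaged 749, 807 and 159.8 CPM, and Nedd4l, a ubiquitin ligase that removes channels from the surface, 596, 536 and 57.3 CPM. These means include the Ttn-high animals. The 21 partners summed to 4860 to 10173.5 CPM in the Ttn-high libraries, 1777 to 2986 CPM in other tumours and 286 to 330 CPM in WT. No values without those libraries or with the offset are given for these lists. In the Ttn-high libraries 6 of the 21 were higher than in all other tumours, beside 12.5% of all genes with at least 50 counts. Among the 6 was Stac, an adaptor of calcium channels, at 9.62 to 85.8 CPM against at most 0.168 CPM. The same count was 10 of 27 for TRP channels, 3 of 26 for chloride channels and 2 of 21 for calcium release and pumps. It was 1 of 4 each for the leak channel complex and HCN lists, and 1 chloride channel was lower. Of 4 genes of the sodium leak channel complex in the table, Unc79 was the 1 tested, and it rose in both groups (7.30, adjusted p = 0.00303, and 8.53, adjusted p = 0.000962). These values are over all animals, the Ttn-high ones included. Unc79 averaged 0.0523 CPM in WT, so it entered the test through its tumour counts and could hardly have been called lower. The 4 genes summed to 25.4 to 134 CPM in the Ttn-high libraries (median 61.5) and 0 to 32.9 CPM in other tumours (median 1.40). The pore of the complex, Nalcn, was at 2.36 to 39.1 CPM in the Ttn-high libraries and at most 0.661 CPM in other tumours.

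Chloride channels mostly rose: 13 of 17 tested in Cyp1a2_CA and 13 of 15 in Gls2_CA rose, and 1 fell in each. Clcn3, Clcn4 and Clcn5, exchangers of endosomes, averaged 189, 213 and 66.7 CPM in Cyp1a2_CA, 154, 216 and 74.1 CPM in Gls2_CA, and 55.3, 47.3 and 8.96 CPM in WT. Lrrc8a, the essential subunit of the volume-regulated channel, fell to 15.6 CPM in Gls2_CA, against 53.4 CPM in WT (-1.86, adjusted p = 2.27e-08). Of 27 TRP channels, 5 rose and 2 fell among 13 tested in Cyp1a2_CA and among 8 in Gls2_CA, and the Cyp1a2_CA share of rises is near that of all genes. Mcoln1, a lysosomal channel, fell in both (-1.95, adjusted p = 1.62e-08, and -2.14, adjusted p = 5.46e-08), and Trpm7 rose in both (0.95, adjusted p = 7.72e-05, and 0.77, adjusted p = 0.000154). Of 4 HCN pacemaker genes, Hcn3 fell in Cyp1a2_CA (-1.72, adjusted p = 0.0014) and was at -0.67 in Gls2_CA (adjusted p = 0.364).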

How the data were processed

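RNA from frozen tumour and liver fragments was extracted with TRIzol and a column, and a Nugen Ovation kit was used for the libraries, per the labels' protocols. The authors deposited 1 table of raw counts per gene and library, and the build is mm10 per the submitters' processing notes. Aligner, counter and strand setting: not given in the sources used here. Library totals were 36992043 to 49254470 in tumours and 13486530 to 16975288 in WT, so WT levels are less precise. No pair of libraries within a group held identical values (96 pairs).

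Counts were summed over libraries with 1 animal number and tested with edgeR 4.0.16 in R 4.3.3 (filterByExpr, TMM factors, robust quasi-likelihood fit of the 2 groups compared), adjusted over all genes. The fit was tested on simulated data. Levels by library and by animal were scaled separately and differ slightly. Ttn-high libraries had Ttn over 1000 CPM and were described with no test.

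Members, gene lists and marker lists were chosen with earlier results of these data known. Genes named were, in each comparison, the largest called rises and falls (mean of the higher group 1 CPM or more), the leading genes of each subfamily, the genes most apart between the Ttn-high and other tumours, and 4 genes of each related list; other genes, among them the smaller rises in the text, were chosen after their values were seen. Some genes are counted but not reported here by name. Gene positions and exon lengths are from GENCODE M21. Alternatives were upper-quartile or DESeq2 size factors, other filters, single libraries as replicates, all groups in 1 fit, DESeq2 1.42.0, an offset for exon length and GC content, thinning tumour counts, and leaving out each animal number or the Ttn-high libraries.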

Additional observations from a re-analysis of the deposited data

Results flagged for a closer look

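Over 30 genes, 88 sets of animal values were examined for a highest or lowest value far from the rest of its group (Dixon's criterion at the 95% level), and 31 such values were found in 19 genes. Chance gives about 1 in 20 for normally distributed values of genes picked without regard to them. That rate does not apply here, because CPM values are skewed and often 0. In addition, many of these genes were named for standing apart between the Ttn-high and other tumours. All were the highest of their group. GAB235, the Ttn-high animal among 5 Gls2_CA animals, accounted for 14, 8 of them in genes named for that contrast, where a high value was fixed by the choice. Its potassium channel values were 1517 CPM for Kcnma1 (next 16.6), 23.0 for Kcnmb4 (next 0), 9.69 for Kcnmb2, 6.74 for Kcnu1, 4.88 for Kcnmb4os2 and 8.59 for Kcnip4. Its calcium channel values were 839 CPM for Cacna1a (next 64.4), 223 for Cacna1e (next 8.15), 111 for Cacna1g, 85.5 for Cacnb3 and 15.2 for Cacna2d2. Its sodium channel values were 65.9 CPM for Scn3a, 117 for Scn8a and 4.32 for Scn3b.

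In Cyp1a2_CA, CAB52 had 2872 CPM of Cacna1b (next 32.4) and 343 CPM of Scn8a (next 10.5). The Ttn-high animal CAB225 had 16.9 CPM of Kcnmb2, 13.0 of Kcnu1 and 72.5 of Scn3a, and the Ttn-high animal CAB44 had 120.5 CPM of Cacna1g and 11.9 of Kcnj8. CAB145 had 8.94 CPM of Kcne3 and 1.18 of Kcnv2, and in Gls2_CA GAB242 had 5.23 CPM of Kcne3 (next 0.962).

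The other 7 were in WT. Cacna2d2 and Kcnu1 (0.0648 CPM each), Kcnmb4 (0.0708), Kcnmb4os2 (0.0656) and Kcnv2 (0.0643) were single WT livers with a count where the other 5 had 0. Cacnb4 was at 3.14 CPM (next 1.94) and Scn3a at 0.788 CPM (next 0.519).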

How the results depend on the processing

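The number of channel genes that rose stayed within 1.5 times the reported count except with no filter (41 in Cyp1a2_CA, 38 in Gls2_CA) and with a stricter filter in Gls2_CA (13), which change how many genes enter. Leaving out 1 animal number at a time gave 25 to 29 rises and 5 to 7 falls in Cyp1a2_CA, and 25 to 27 rises and 5 to 7 falls in Gls2_CA. Between the drivers the count was 0 in each such fit. The number of genes separating the Ttn-high tumours was 23 or 24 higher and 1 lower under the planned settings, and 18 and 1 with at least 50 counts required outside those libraries. Upper-quartile factors moved the median of all genes in Cyp1a2_CA to -0.05, against 0.17, and the members' median to 1.53, against 1.75.

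For 23 genes named in Cyp1a2_CA, 579 of 590 values over 26 settings kept their direction and call, 1 lost the call, 5 gained it and 5 changed sign. For 21 genes in Gls2_CA, 438 of 446 did so, 2 lost the call, 5 gained it and 1 changed sign. None of the genes that changed sign had passed the threshold in that comparison: in Cyp1a2_CA Kcnj10 (-0.00596 with upper-quartile factors, -0.18 with the offset, -0.0579 with the offset and no Ttn-high libraries) and Kcnj16 (-0.0323 with upper-quartile factors, -0.0138 without Cyp1a2_CA replicate 3, and up to 0.297 on leaving out another animal), and in Gls2_CA Kcnn2 (0.00415 without Gls2_CA replicate 1, and down to -0.39 on leaving out another animal). The cause was not tested. That requirement and the offset combined with removal of the Ttn-high libraries were chosen after seeing the data. No paired analysis was possible because the groups compared came from different animals. Replicate numbers were given in accession order and mark no pairs. WT libraries hold fewer counts, so genes near 0 in WT have poorly bounded folds.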

Other observations

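Each member was also placed by the library in which it was highest. Of the 106 members, 63 (59.4%) peaked in 1 of the 4 Ttn-high libraries, beside 29.2% of 21126 genes. Among the 83 with at least 50 counts outside those libraries 44 (53%) did, beside 25.1% of 19537 genes. CB6-L, the single Cyp1a2_C library, held the maximum of 31 members (29.2%, beside 13.8% of all genes), and CAB225-L of 16 (15.1%, beside 3.81%). With 1 library of its genotype, what is particular to CB6-L cannot be told apart from its genotype.

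Several genes were much higher in CB6-L than in any other library. Scn9a, a sodium channel of sensory neurons, was at 12.8 CPM there and at most 1.70 CPM elsewhere. The voltage-gated potassium pores Kcnq5 (13.9, next 2.85), Kcnc2 (9.36, next 1.03) and Kcnh1 (4.71, next 0.443) and the calcium channel subunit Cacna2d3 (10.4, next 1.56) had the same pattern in CPM. Kcnb2, at 13.0 CPM in CB6-L, was also at 4.53, 3.77 and 1.07 CPM in the other Ttn-high libraries, against at most 0.789 CPM in other tumours. In CAB225-L, Kcnip1 was at 15.1 CPM (next 1.27) and Kcnmb1, the smooth muscle beta subunit of the large-conductance channel, at 9.75 CPM (next 0.974). These genes were chosen after their values were seen.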
